A study of Homo sapiens with 6 samples.

Results

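The genes described here are 39 genes of autophagy and the lysosome, named by symbol: the autophagy core machinery, cargo receptors, the TFEB family of transcription factors, and lysosomal enzymes and membrane proteins. All 39 were found among the 60675 gene entries of the deposited table, and 38 of them reached 1 FPKM or more in 3 or more of 6 libraries and entered the test. FPKM is the number of fragments scaled to transcript length and to the mapped fragments of the library, so levels of different genes can be set beside each other. The libraries came from total RNA of the human colorectal carcinoma line HCT116. Cells stably expressed either wild-type PHF5A (WT, genotype label WT, 3 libraries) or the K29Q form (genotype label PHF5A K29Q, 3 libraries), in which glutamine stands in place of a lysine. The medium, serum and antibiotics were the same for both, and no starvation or other treatment is labelled. PHF5A belongs to the splicing complex SF3B, and the series title ties its acetylation to stress responses, so the comparison asks whether the genes of this stress pathway differ between K29Q and WT cells. Whether the 3 libraries of 1 genotype stem from different cultures, clones or pools is not labelled. P-values below therefore weigh differences against the spread of these libraries, and that spread may be technical.

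Autophagy wraps cytoplasm in a double membrane and delivers it to the lysosome. The ULK1 kinase complex starts it, a PI3P-producing lipid kinase complex marks the membrane, ATG9 and ATG2 proteins supply lipid, and a ubiquitin-like conjugation system attaches ATG8 proteins to the membrane, where receptors bring in cargo. The lysosome then degrades the content with acid hydrolases at the low pH kept by the V-ATPase, and TFEB and its relatives switch on many genes of both steps when nutrients run short. Much of the pathway is controlled on proteins already made (phosphorylation, lipidation, turnover), which RNA levels do not show.

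Estimated depths ran from 33600000 to 40000000 fragments per library. PHF5A itself had an FPKM of 33.1 ± 1.06 in WT and 44.1 ± 2.38 in K29Q (SD over 3 libraries). Gene totals cannot tell the introduced form from the cell's own. The epithelial keratins KRT8, KRT18 and KRT19 lay between 169 and 757 FPKM in every library. Of 10 epithelial and colon markers 7 reached the expression minimum, while CDX1, VIL1 and CEACAM5 stayed under 1. The summed level of these 10 markers was 1260 to 1420 FPKM in WT and 1160 to 1220 in K29Q, and of the 7 expressed ones KRT8, KRT18, KRT19 and CDH1 were lower in all 3 K29Q libraries than in any WT library (9.0% of all tested genes were). For EPCAM, CLDN7 and CDX2 the groups overlapped, with log2 fold changes of 0.06, 0.03 and −0.01. Their part in the results below was not tested. Of 9 leukocyte markers 0 reached the minimum, with sums of 1.43 to 1.68 FPKM in WT and 1.52 to 1.66 in K29Q. PTPRC, the pan-leukocyte surface phosphatase, was at most 0.00268. Of 9 fibroblast and endothelial markers 1 (COL1A1) reached it, with sums of 4.76 to 5.68 and 4.85 to 6.24 FPKM, and DCN and LUM were listed at 0 in all 6 libraries.

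No autophagy or lysosome gene differed between K29Q and WT beyond the spread between libraries after correction for the number of genes tested. Of 38 tested members 0 passed the threshold, an adjusted p of 0.05 (limma with Benjamini-Hochberg adjustment over 13261 genes), where 7 of all genes did (0.0528%), 4 higher (0.0302%) and 3 lower (0.0226%). An unadjusted p under 0.05 was reached by 2 members, OPTN and RB1CC1, both higher in K29Q, against 12.5% of all genes in either direction, 7.65% higher and 4.89% lower. A log2 fold change beyond 0.25 in size was found in 3 members (GABARAPL1, ATG5 and RB1CC1, 7.89%), against 12% of all genes. Of the members 17 lay above 0 (51.0% of all genes did) and 21 below (49.0%), and their median log2 fold change was −0.01, against 0.00 for all tested genes. The typical size of the difference was also that of all genes, with a median absolute log2 fold change of 0.09 in both. Fold changes here are differences of log2(FPKM + 1), K29Q minus WT, a scale on which the change of low genes comes out too small.

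Most members could be bounded on the FPKM + 1 scale, against the spread of these libraries, which may be technical. The 95% confidence interval of the log2 fold change reached 0.20 to either side of the estimate in the median member, and 0.21 in the median gene. For 31 of 38 members the whole interval lay within 0.5, a ratio of 1.41 on the FPKM + 1 scale. The other 7 were ATG5, ATP6V1H, CTSD, CTSL, GABARAPL1, MAP1LC3B and RB1CC1, and for GABARAPL1 alone among the 38 the interval passed 1, a ratio of 2. For those genes a difference beyond that size is not bounded by 3 libraries a group. The bounds are also too narrow for low genes: TFEB, among the 31, read −0.23, and −0.34 with a pseudocount of 0.1.

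The count of members past the threshold stayed at 0 under every alternative run. The share of all genes that passed was 0.098% with quantile normalization, 0.00486% with no filter on low values, 0.0737% among genes with a mean of 5 FPKM or more, 0.0452% with a pseudocount of 0.1, 0.0226% with the replicate block, 0.0302% with a flow cell term and 0.61% with GC and length corrected. With 1 library left out it was 0.151% (WT 1), 0.0377% (WT 2), 0.0603% (WT 3), 0.0905% (K29Q 1), 0.0377% (K29Q 2) and 0.0603% (K29Q 3). RB1CC1 without WT 1 came nearest to the threshold among the members, with a log2 fold change of 0.49 and an adjusted p of 0.0715 (limma).

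**Figure D1:**
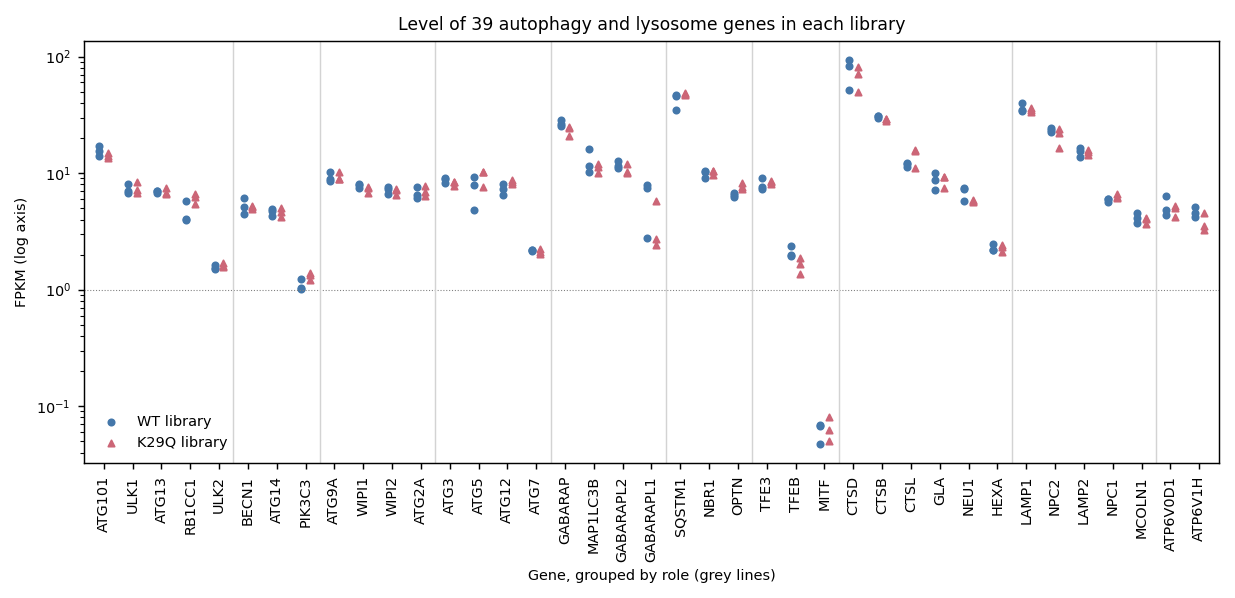
FPKM (log axis) of each of the 39 genes in the 3 WT libraries (blue circles) and 3 K29Q libraries (red triangles), grouped by role. CTSD, SQSTM1 and LAMP1 lie at the top, MITF lies under 0.1 in every library, and the symbols of both groups sit close together for most genes.

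All members except MITF were expressed in these cells, at levels that spanned from 0.063 FPKM for MITF to 71.7 for CTSD (means of 6 libraries). The median member had 7.37 FPKM, against 5.20 for the median tested gene. Only 1 member (MITF) averaged under 1 FPKM, 10 lay from 1 to under 5, 16 from 5 to under 10, 9 from 10 to under 30, and 3 at 30 or more. Leading the order were the aspartic protease CTSD (71.7), the receptor SQSTM1 (45.1), the lysosomal membrane glycoprotein LAMP1 (35.4), the cysteine protease CTSB (29.7) and the ATG8 protein GABARAP (25.1). At the lower end of the tested genes were the lipid kinase PIK3C3 (1.2), the kinase ULK2 (1.59), the transcription factor TFEB (1.86) and the conjugation enzyme ATG7 (2.14). Many neighbours in this order had overlapping library values, for example the 4 genes from GLA (8.69) down to TFE3 (8.20).

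Of the 2 kinases that start autophagy, ULK1 had the higher RNA level in every library. ULK1, the kinase that mTORC1 and AMPK regulate, had 7.30 ± 0.724 FPKM in WT and 7.45 ± 0.884 in K29Q, and ULK2 had 1.56 ± 0.0662 and 1.62 ± 0.0588 (SD over 3 libraries). Their log2 fold changes were 0.02 and 0.03. Of the other subunits, ATG13 was at a level similar to ULK1, with 6.93 ± 0.121 and 6.95 ± 0.393 FPKM. ATG101, the stabilising partner of ATG13, was higher, with 15.5 ± 1.54 and 14.2 ± 0.833.

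RB1CC1 (FIP200), the scaffold of the ULK1 complex, had the second smallest p among the members. Its FPKM was 5.77, 4.05 and 3.98 in WT 1 to 3 and 6.60, 5.39 and 6.26 in K29Q 1 to 3. WT 1 lay within the range of the K29Q libraries, so the groups overlapped, and the other WT libraries lay below all of K29Q. The ratio of means was 1.32 and the log2 fold change 0.35 (0.03 to 0.67 at 95% confidence, SE 0.13, adjusted p = 0.389 by limma). RB1CC1 (ENSG00000023287, protein-coding, chromosome 8, minus strand) has an AT-rich transcript, with a GC content of 37.6%. With the trend on GC content and transcript length taken out of every library, its log2 fold change was 0.17 (adjusted p = 0.387).

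The PI3P kinase complex, which marks the forming membrane with a phosphorylated lipid, differed little between the groups. PIK3C3, its catalytic subunit (ENSG00000078142, chromosome 18 from 41955206 to 42087830, plus strand), had 1.23, 1.03 and 1.01 FPKM in WT 1 to 3 and 1.2, 1.33 and 1.38 in K29Q 1 to 3. WT 1 lay above K29Q 1. The log2 fold change of 0.14 (SE 0.077, adjusted p = 0.476 by limma) turned to −0.05 after GC and length correction. BECN1, which binds PIK3C3, had 5.24 ± 0.875 and 5.10 ± 0.129 FPKM, and ATG14, which directs the complex to autophagy, had 4.63 ± 0.347 and 4.62 ± 0.393.

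Genes that supply membrane and read PI3P stayed within 0.08 of 0 on the log2 scale. The lipid scramblase ATG9A had 9.27 ± 0.911 FPKM in WT and 9.34 ± 0.740 in K29Q, and the lipid transfer protein ATG2A 6.75 ± 0.765 and 6.97 ± 0.682. WIPI2, which recruits the conjugation machinery to PI3P, had 7.18 ± 0.493 and 6.98 ± 0.407. Its relative WIPI1 had the smallest p of the 4, with 7.87, 8.04 and 7.41 FPKM in WT 1 to 3 and 6.80, 7.45 and 7.60 in K29Q 1 to 3. The WIPI1 groups overlapped and its log2 fold change was −0.08 (SE 0.067, adjusted p = 0.619 by limma), and −0.04 without K29Q 1.

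The conjugation system attaches ATG12 to ATG5 and ATG8 proteins to lipid, with ATG7 as the activating enzyme and ATG3 as the enzyme that hands ATG8 proteins on. ATG12 (ENSG00000145782, chromosome 5 from 115828200 to 115841858, minus strand) had 8.14, 7.28 and 6.5 FPKM in WT 1 to 3 and 8.0, 8.34 and 8.82 in K29Q 1 to 3. Only K29Q 1 reached into the WT range. Its log2 fold change was 0.18 (SE 0.087, adjusted p = 0.438 by limma), 0.03 after GC and length correction and 0.11 without WT 3. ATG5 varied widely within WT, with 9.19, 7.85 and 4.82 FPKM in WT 1 to 3 and 7.55, 10.3 and 10.2 in K29Q 1 to 3. ATG7 was the steadiest of these genes, with 2.17 ± 0.0131 FPKM in WT and 2.11 ± 0.104 in K29Q. ATG3 had 8.81 ± 0.465 and 8.21 ± 0.331 FPKM, a log2 fold change of −0.09 that became −0.18 after GC and length correction (adjusted p = 0.174).

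All 4 ATG8 proteins among the members had a log2 fold change below 0, from −0.57 to −0.11, but 0 of them passed. GABARAP led the family at 25.1 FPKM, followed by MAP1LC3B (11.9, the LC3 isoform used as the usual marker of autophagosomes), GABARAPL2 (11.3) and GABARAPL1 (4.85). The library ranges of MAP1LC3B and GABARAPL2 overlapped, so their order is not settled. MAP1LC3B had 12.6 ± 3.04 FPKM in WT and 11.1 ± 1.01 in K29Q, and GABARAPL2 11.7 ± 0.752 and 10.8 ± 1.07. MAP1LC3B2, a near-identical copy of MAP1LC3B, had 1.47 ± 0.377 and 1.28 ± 0.174 FPKM (log2 fold change −0.10), and how reads were divided between them is uncertain. MAP1LC3A and MAP1LC3C, the other LC3 genes, stayed under 0.15 FPKM in every library and were not tested.

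GABARAP was lower in all 3 K29Q libraries than in any WT library. Its FPKM was 26.3, 28.5 and 25.2 in WT 1 to 3 and 21.0, 24.6 and 24.7 in K29Q 1 to 3, with K29Q 1 set apart below the others. The log2 fold change was −0.18 (−0.38 to 0.02 at 95% confidence, SE 0.085, adjusted p = 0.427 by limma), and flow cell A gave −0.31 where flow cell B gave −0.06. Without K29Q 1 it was −0.11. GABARAP (ENSG00000170296, chromosome 17 from 7240014 to 7242770, minus strand) shares exons with a longer gene model on the same strand, CTD-2545G14.7 (AC120057.2 in GENCODE), which had 8.10 ± 0.896 FPKM in WT and 9.17 ± 4.68 in K29Q. In K29Q 1 this model stood at 14.0 FPKM. The sum of both entries was 34.8 ± 1.34 and 32.6 ± 2.98, with K29Q 1 at 35.0, inside the WT range. The groups therefore did not separate once both entries were added.

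GABARAPL1, the family member with the largest spread, fell into a low and a high set of libraries, each holding both genotypes. It had 2.78 FPKM in WT 1, 2.42 in K29Q 1 and 2.74 in K29Q 2, but 7.46 in WT 2, 7.87 in WT 3 and 5.81 in K29Q 3. Both groups and both flow cells held libraries of the low and of the high kind, and the highest value was 3.25 times the lowest. The log2 fold change of −0.57 (−1.48 to 0.35 at 95% confidence, SE 0.39, adjusted p = 0.563 by limma) read −1.24 in flow cell A but 0.23 in flow cell B. Without WT 1 the log2 fold change of GABARAPL1 was −0.97 (adjusted p = 0.156 by limma). The processed copy GABARAPL3 was at most 0.039 FPKM.

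The cargo receptors bind ubiquitinated cargo and ATG8 proteins at once. They were the only role with 3 or more tested members in which every member lay above 0, where 51.0% of all genes lay. Receptors of the wider autophagy list lay on both sides: TAX1BP1 (0.26) and CALCOCO2 (0.02) above 0 and TOLLIP (−0.20) below. OPTN (optineurin, a receptor for damaged mitochondria and bacteria) had the smallest p of all members. Its FPKM was 6.19, 6.75 and 6.52 in WT 1 to 3 and 7.68, 8.26 and 7.29 in K29Q 1 to 3, so that every K29Q library lay above every WT library. The ratio was 1.19 and the log2 fold change 0.22 (0.06 to 0.39 at 95% confidence, SE 0.069, adjusted p = 0.356 by limma). Flow cell A gave 0.21, flow cell B 0.17, and the corrected value for GC and length was 0.19. OPTN (ENSG00000123240) lies on chromosome 10 from 13099449 to 13138308 on the plus strand.

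SQSTM1 (p62), the receptor that is itself consumed by autophagy, also separated the groups, but by a narrow gap. It had 45.8, 46.6 and 34.8 FPKM in WT 1 to 3 and 47.7, 48.4 and 47.1 in K29Q 1 to 3. WT 3 alone lay far below the rest, and the K29Q libraries lay just above WT 1 and WT 2. The log2 fold change was 0.18 (−0.09 to 0.45 at 95% confidence, SE 0.11, adjusted p = 0.535 by limma). Flow cell A, which does not hold WT 3, gave 0.04, and flow cell B, which does, gave 0.23. Without WT 3 the log2 fold change of SQSTM1 was 0.05. SQSTM1 (ENSG00000161011) lies on chromosome 5 from 179806398 to 179838078 on the plus strand, and 20.67% of its exon bases overlap MRNIP on the opposite strand. NBR1, the third receptor, had 9.88 ± 0.747 and 10.2 ± 0.487 FPKM.

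In the TFEB family, transcription factors that move to the nucleus when mTORC1 is off, TFE3 was the most abundant transcript. TFE3 had 8.04 ± 0.979 FPKM in WT and 8.36 ± 0.275 in K29Q, above TFEB in every library, while MITF, the melanocyte member, lay between 0.0473 and 0.0808 and was not tested. TFEB had 1.97, 1.93 and 2.35 FPKM in WT 1 to 3 and 1.88, 1.35 and 1.66 in K29Q 1 to 3. All K29Q libraries lay below all WT libraries, with K29Q 1 close to WT 2. The ratio was 0.783 and the log2 fold change −0.23 (−0.47 to 0.01 at 95% confidence, SE 0.10, adjusted p = 0.404 by limma). Flow cell A gave −0.17, flow cell B −0.25, and the corrected value for GC and length was −0.19. Without K29Q 2 the log2 fold change of TFEB was −0.15. TFEB (ENSG00000112561) lies on chromosome 6 from 41683978 to 41736259 on the minus strand.

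**Figure D2:**
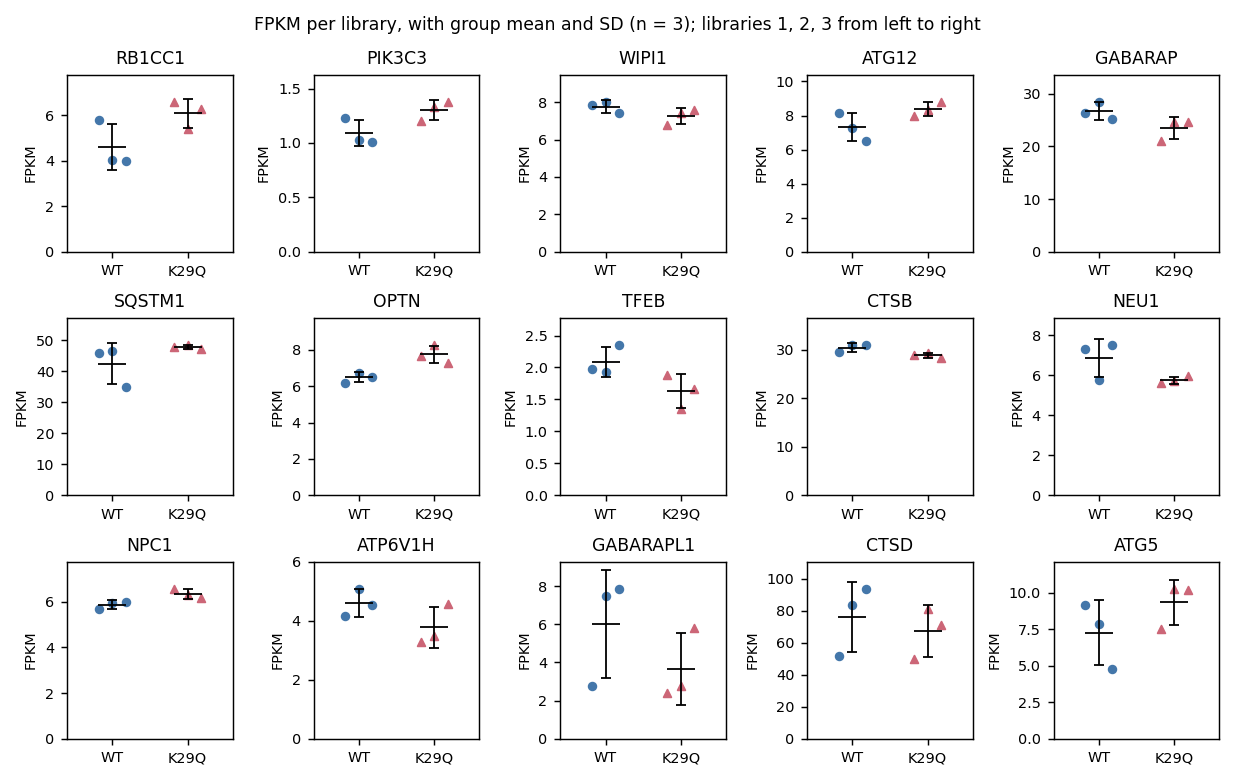
FPKM in each library (y axis, from 0) for 15 members, with WT libraries as blue circles, K29Q libraries as red triangles, and the group mean and SD (n = 3) in black. OPTN, NPC1 and SQSTM1 lie higher and GABARAP, TFEB and CTSB lower in all K29Q libraries, while GABARAPL1, CTSD and ATG5 vary within both groups.

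TFEB and its relatives bind an E-box in many lysosomal promoters, so the letters CACGTG and the longer form TCACGTG were looked for on both strands in RefSeq promoter windows (GRCh38.p14, 250 bases before to 50 after the start of the gene). A window was at hand for 34 of the 39 members. RB1CC1, CTSB, ATP6V1H, HEXA and LAMP2 had none and could not be searched. CACGTG occurred in 7 of them (20.6%), against 7.26% of all 35116 windows, and every one of the 7 also held TCACGTG (20.6%, against 3.71% of all windows). All windows include genes not expressed in these cells, unlike most members. Among tested genes with a window, 921 held CACGTG and 7914 did not, and 535 held TCACGTG. The members were picked as autophagy and lysosome genes, so a higher share than in all windows is a description of the list. A match shows the letters and not a bound site. The stretches are shown because these 7 members are the ones with the element in reach of the start, 1 stretch per gene and 2 for LAMP1, 5′ to 3′ on the strand of the gene, with CACGTG in capitals.
NEU1, chr6:31862930-31862959, minus strand: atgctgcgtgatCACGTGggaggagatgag
CTSD, chr11:1763957-1763986, minus strand: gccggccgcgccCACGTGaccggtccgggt
LAMP1, chr13:113297035-113297064, plus strand: accaggccgggtCACGTGggtccagggtca
LAMP1, chr13:113297199-113297228, plus strand: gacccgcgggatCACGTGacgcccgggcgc
MCOLN1, chr19:7522571-7522600, plus strand: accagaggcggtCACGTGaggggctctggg
ATP6V0D1, chr16:67481199-67481228, minus strand: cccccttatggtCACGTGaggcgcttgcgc
ATG14, chr14:55411834-55411863, minus strand: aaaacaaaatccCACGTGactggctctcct
ATG3, chr3:112561963-112561992, minus strand: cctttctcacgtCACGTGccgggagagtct

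In LAMP1 the first of these copies begins 192 bases and the last printed one 28 bases upstream of the RefSeq start. In NEU1 the element begins 126 bases upstream of the RefSeq start, and in CTSD 47 bases. Gene positions given elsewhere are from GENCODE, where NEU1 and CTSD start at other bases. The 7 members with CACGTG had a median log2 fold change of −0.08, with 7 below 0 and 0 above. The 26 tested members whose windows lacked it had a median of 0.01, with 11 below 0 and 15 above. Among all tested genes with CACGTG in the window 49.1% lay below 0 (452 of 921), and among those without it 48.6%. None of the 7 passed the test, and several lay very near 0. Their direction held under some alternatives and not under others. Without WT 3 the count was 4 below 0 and 3 above (CTSD, ATG14 and MCOLN1), and without WT 2 or K29Q 1 it was 5 and 2. It was 6 and 1 without WT 1 (ATG14), with a flow cell term (ATG14) and with GC and length corrected (MCOLN1). All 7 stayed below 0 without K29Q 2, without K29Q 3, with quantile normalization and with a pseudocount of 0.1. The median of those tested lay between −0.13 and −0.06 in every setting.

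The acid hydrolases degrade proteins, lipids and sugars in the lysosome. CTSD, the most abundant member, ran from 49.7 FPKM in K29Q 1 and 51.6 in WT 1 to 93.7 in WT 3, with 83.2 in WT 2, 80.9 in K29Q 2 and 71.2 in K29Q 3. Both groups held a low library, and the log2 fold change was −0.16 (SE 0.26, adjusted p = 0.812 by limma). CTSD shares 41.71% of its exon bases with RP11-295K3.1 (AC068580.4 in GENCODE), a model on the same strand with 0.669 to 1.19 FPKM, and the sum of both entries was 77.2 ± 22.1 in WT and 68.1 ± 15.7 in K29Q. CTSL had 11.8 ± 0.528 FPKM in WT and 14.1 ± 2.65 in K29Q, with 11.9, 12.3 and 11.2 in WT 1 to 3 and 15.5, 11.1 and 15.8 in K29Q 1 to 3. K29Q 2 lay below all WT libraries and the other K29Q libraries above them.

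CTSB was among the most even members, yet its groups did not overlap. Its FPKM was 29.5, 31.0 and 31.0 in WT 1 to 3 and 29.0, 29.4 and 28.3 in K29Q 1 to 3. The gap between WT 1 and K29Q 2 was small, and the log2 fold change was −0.08 (−0.21 to 0.06 at 95% confidence, SE 0.055, adjusted p = 0.587 by limma). CTSB (ENSG00000164733) is on chromosome 8.

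NEU1, the lysosomal sialidase, had 7.33, 5.75 and 7.51 FPKM in WT 1 to 3 and 5.61, 5.72 and 5.94 in K29Q 1 to 3. WT 2 lay among the K29Q libraries, while WT 1 and WT 3 lay above them. The log2 fold change of −0.21 (−0.44 to 0.02 at 95% confidence, SE 0.098, adjusted p = 0.426 by limma) read −0.02 in flow cell A but −0.28 in flow cell B, and −0.32 without WT 2 (adjusted p = 0.399 by limma). NEU1 (ENSG00000204386) lies on chromosome 6 from 31857659 to 31862906 on the minus strand. The galactosidase GLA had 8.69 ± 1.47 and 8.68 ± 1.04 FPKM, and the hexosaminidase subunit HEXA 2.28 ± 0.144 and 2.29 ± 0.176.

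Membrane and cholesterol-handling proteins of the lysosome included NPC1, the transporter that exports cholesterol, whose groups did not overlap. NPC1 had 5.66, 5.95 and 6.00 FPKM in WT 1 to 3 and 6.57, 6.27 and 6.17 in K29Q 1 to 3. Every K29Q library lay above WT, by little, with a log2 fold change of 0.09 (−0.05 to 0.24 at 95% confidence, SE 0.060, adjusted p = 0.535 by limma). NPC1 (ENSG00000141458) lies on chromosome 18 from 23506184 to 23586898 on the minus strand. NPC2, which passes cholesterol to NPC1, pointed the other way at −0.18 (SE 0.13, adjusted p = 0.589), with 24.6, 23.4 and 22.5 FPKM in WT 1 to 3 and 16.5, 24.1 and 22.0 in K29Q 1 to 3. LAMP1 had 36.2 ± 3.11 and 34.6 ± 1.38 FPKM, LAMP2, which also serves chaperone-mediated autophagy, 15.2 ± 1.26 and 15.2 ± 0.750, and the calcium channel MCOLN1 4.14 ± 0.397 and 3.95 ± 0.255.

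Both V-ATPase subunits of the list lay below 0. ATP6V1H, a subunit of the part that hydrolyses ATP (ENSG00000047249, chromosome 8), had 4.17, 5.09 and 4.54 FPKM in WT 1 to 3 and 3.27, 3.49 and 4.56 in K29Q 1 to 3. K29Q 3 lay within the WT range and the other K29Q libraries below it. The log2 fold change was −0.24 (−0.51 to 0.04 at 95% confidence, SE 0.12, adjusted p = 0.444 by limma). Flow cell A gave −0.48 but flow cell B 0.06. ATP6V0D1, which links the ATPase part to the membrane ring, had 5.17 ± 1.01 and 4.81 ± 0.513 FPKM.

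**Figure D3:**
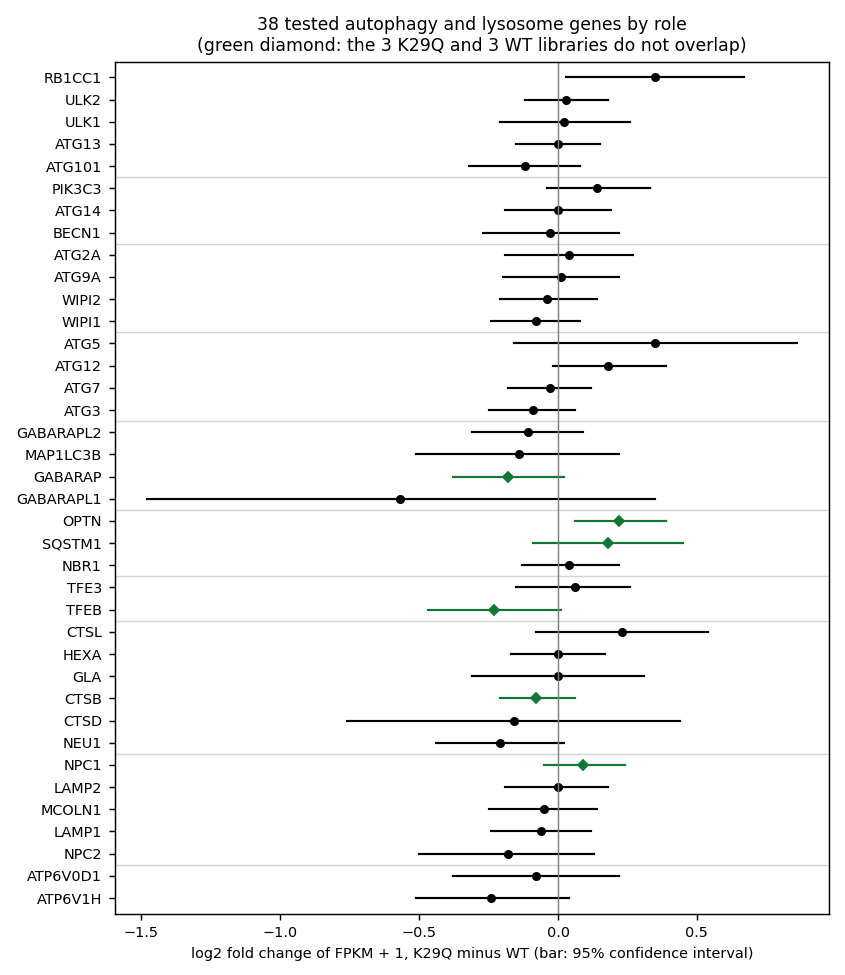
Log2 fold change of FPKM + 1 (x axis, K29Q minus WT) with its 95% confidence interval for the 38 tested genes, in the order of their roles. Of the 38 intervals 2 leave out 0 (OPTN and RB1CC1), and green diamonds mark the 6 genes whose K29Q and WT libraries do not overlap.

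Counted together, the K29Q and WT libraries did not overlap for 6 of 38 members (15.8%), against 17.8% of all tested genes. These were OPTN, SQSTM1 and NPC1 on the higher side (8.8% of all genes) and GABARAP, TFEB and CTSB on the lower side (9.0%). With 3 libraries against 3, an exact two-sided permutation test of a single gene cannot give a p below 0.1, so this separation by itself passes no test at 0.05.

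The sequencing run named in the column headers, read here as the flow cell, was crossed with the groups: flow cell A held K29Q 1, K29Q 2 and WT 2, and flow cell B held K29Q 3, WT 1 and WT 3. The K29Q minus WT difference had the same sign within both flow cells for 23 of 38 members (60.5%), against 62.6% of all tested genes. The median of the members came to −0.03 in flow cell A but 0.04 in flow cell B. OPTN, RB1CC1 and TFEB kept their direction in both. ATP6V1H and GABARAPL1 did not.

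Base composition moved with part of the differences. Of the tested genes with an annotated transcript, the 1873 with a GC content of up to 40% had a median log2 fold change of 0.15. The 6 members in that class (ATG3, ATG5, ATG12, LAMP2, PIK3C3 and RB1CC1) had a median of 0.16, and −0.01 after GC and length correction. The 15 members with over 50% and up to 60% had a median of −0.04, as had all genes of that class. In the other classes the medians differed. With over 40% and up to 50%, 13 members had −0.03 and all genes 0.03. With over 60%, 4 members had −0.01 and all genes −0.05. After correction 0 members passed, and 4 reached an unadjusted p under 0.05: OPTN above 0, and ATG3, LAMP2 and TFEB below it. The share of all genes at that unadjusted p is not given for this setting, so the count of 4 has no background beside it. LAMP2 moved from 0.00 to −0.14 (adjusted p by limma = 0.267).

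**Figure D4:**
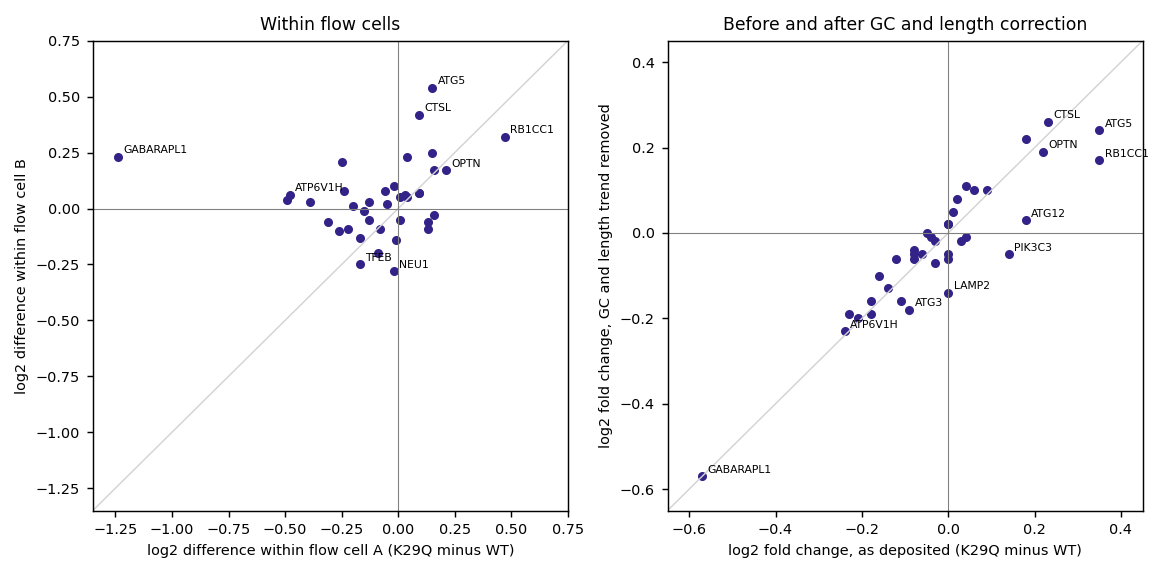
Left, the K29Q minus WT difference of log2(FPKM + 1) of each tested member inside flow cell A (x axis) against flow cell B (y axis). Right, the log2 fold change as deposited (x axis) and after removal of the GC and length trend (y axis), where ATG12, PIK3C3 and RB1CC1 lie below the diagonal and OPTN stays near it.

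The rest of the pathway, taken from 5 wider lists, is given by counts beside the shares of all genes above. Among 36 tested autophagy genes outside the 39, 0 passed and 2 reached an unadjusted p under 0.05 (limma), with a median log2 fold change of 0.01. WDFY3 (ALFY), a scaffold for the autophagy of protein aggregates, had 2.91 ± 0.270 FPKM in WT and 3.59 ± 0.150 in K29Q (adjusted p = 0.365), but its log2 fold change of 0.23 was 0.10 after GC and length correction. RAB7A, the GTPase of late endosomes needed for fusion with the lysosome, had 95 ± 1.89 and 85.3 ± 3.57 FPKM (adjusted p = 0.388). The receptor TAX1BP1 had 6.79 ± 0.989 and 8.27 ± 0.836 FPKM and the lipid scramblase TMEM41B 5.79 ± 0.591 and 6.96 ± 0.804.

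Among 37 tested lysosomal hydrolases and activators 0 passed and 2 reached an unadjusted p under 0.05 (limma), 1 in each direction, with a median of 0.00. GM2A, the activator of ganglioside breakdown by HEXA, had 12.6 ± 0.651 FPKM in WT and 10.8 ± 0.869 in K29Q (adjusted p = 0.388). LIPA, the lysosomal acid lipase, had 7.86 ± 1.07 and 9.63 ± 0.769 (adjusted p = 0.389). The protease CTSK had 1.49 ± 0.269 and 1.90 ± 0.252 FPKM. Among 27 lysosomal membrane proteins 0 passed and 2 reached an unadjusted p under 0.05, 1 in each direction: the tetraspanin CD63, with 86.1 ± 1.84 and 76.7 ± 4.02 FPKM, and MFSD8, a transporter-like protein with 1.70 ± 0.302 and 2.25 ± 0.244.

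Of 17 further V-ATPase subunits 11 lay below 0, the median was −0.06, 0 passed and 2 reached an unadjusted p under 0.05 (limma), both below 0. ATP6V1F had 152 ± 12.3 FPKM in WT and 132 ± 2.96 in K29Q (adjusted p = 0.380), and ATP6V0B 12.5 ± 0.810 and 11.0 ± 0.237 (adjusted p = 0.392). ATP6V1A, the subunit that binds ATP, had 11.5 ± 1.37 and 13.0 ± 0.758 FPKM and lay on the other side of 0.

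Upstream of ULK1 and TFEB, 34 genes of nutrient sensing were tested, among them genes of mTORC1, AMPK and the Rag GTPases. Again 0 passed, 4 reached an unadjusted p under 0.05 (limma), 2 in each direction, and the median was 0.00. PRKAB1, a regulatory subunit of AMPK, had 5.18 ± 0.189 FPKM in WT and 4.14 ± 0.360 in K29Q, with no overlap between the groups, a ratio of means of 0.799, and on the log2 scale a fold change of −0.27 (SE 0.074, adjusted p = 0.325). Flow cell A gave −0.26, flow cell B −0.35, and the corrected value for GC and length was −0.27. LAMTOR2, part of the lysosomal anchor of mTORC1, had 18.2 ± 1.17 and 16.2 ± 0.440 FPKM. FNIP1, a partner of folliculin, had 3.31 ± 0.529 and 4.02 ± 0.109 FPKM, and the stress-induced sestrin SESN3 1.39 ± 0.218 and 1.83 ± 0.219. The log2 fold changes of FNIP1 and SESN3 went from 0.23 and 0.24 to 0.07 and 0.03 after GC and length correction.

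**Figure D5:**
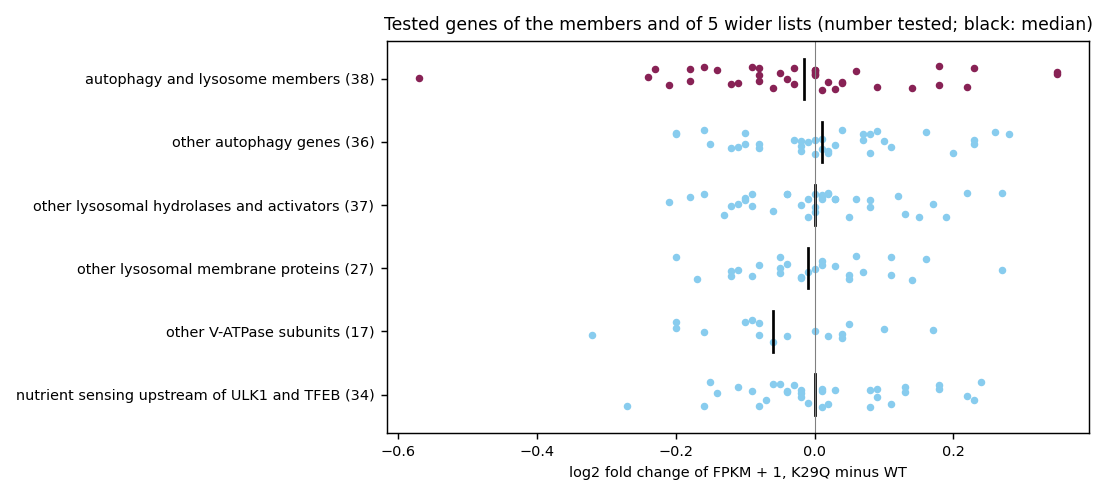
Log2 fold change (x axis, K29Q minus WT) of each tested gene of the member list and of 5 wider lists, with the number tested in brackets and the median as a black line. The medians lie between −0.06 and 0.01, and GABARAPL1 is the point farthest to the left.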

How the data were processed

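The authors deposited 1 table whose columns are FPKM values, per the file headers, with genes as entries, and 0 of these columns belonged to other samples. The submitters' processing notes name HISAT2 2.1.0, StringTie and GRCh38, per the labels. For StringTie, neither version nor annotation nor strand option is given in the sources used here. Depth is not stated. It was estimated from the steps between low values of genes with 1 exon and more than 600 nt, assuming 1 step is 1 fragment. The step was sought only in a preset range, so a depth outside the matching range could not come out. No counts were recovered.

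The 13261 genes that reached 1 FPKM in 3 or more libraries were fitted as log2(FPKM + 1) with limma 3.58.1 (R 4.3.3, intensity trend, group as the only term), with Benjamini-Hochberg adjustment over all of them and a threshold of 0.05. On simulated data with these means and spreads, 44% of genes changed by 0.5 on the log2 scale were recovered, and 86% of those changed by 1. There 50 genes were changed at each of the sizes 0.5, 1, 1.5 and 2, which eases the adjustment, whereas 7 genes passed in the data. Only genes with a mean log2(FPKM + 1) above 2 were changed, which left out TFEB, ULK2, PIK3C3, ATG7 and HEXA. The recovered shares are therefore likely too high for the members. Positions, GC content and overlaps are from GENCODE 29 (GRCh38), by gene ID. Alternatives were quantile normalization, other filters, a pseudocount of 0.1, a flow cell term, the replicate number as a block, GC and length correction (loess, span 0.5), and leaving out each library. The members and lists were chosen with earlier results of these data known. All members may be named. Values in every library are given for members at an unadjusted p under 0.05 or with groups that do not overlap, for the smallest p of each role, and, chosen after their values were seen, for GABARAPL1, CTSD, ATG5, CTSL and NPC2. From each wider list up to 4 genes with the smallest p are named, and the receptors CALCOCO2 and TOLLIP were added after their values were seen. A result that the rule would name is not reported here.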

Additional observations from a re-analysis of the deposited data

How the results depend on the processing

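The count of members past the threshold was 0 in every alternative run: quantile normalization, no filter, the filter at a mean of 5 FPKM, the pseudocount 0.1, the replicate block, the flow cell term, GC and length correction, and each library left out. RB1CC1 without WT 1 came nearest (log2 fold change 0.49, adjusted p by limma = 0.0715). The count over all genes was 7, and 13 with quantile normalization, 2 with no filter, 4 with a flow cell term, 80 after GC and length correction (59 higher, 21 lower) and 5 to 20 with 1 library left out (20 without WT 1, 12 without K29Q 1). Members at an unadjusted p under 0.05 numbered 2, 4 with quantile normalization, 4 after GC and length correction, and 1 to 4 with 1 library left out. The share of all genes at that p is given for the main fit only (12.5%). Changes of this count between alternatives, the replicate block included, therefore cannot be read as changes of the members. PIK3C3 reversed after GC and length correction, to −0.05. Of 153 values of 12 members under these alternatives, the other 152 kept their direction. Part of this was fixed in advance, so the count is no test of stability. The 12 members were picked from these same data by a small p or by groups that do not overlap. Where the groups do not overlap, leaving out 1 library cannot turn the sign. The replicate block and the other filters on low values leave each estimate unchanged. Leaving out 1 library moved SQSTM1 to 0.05 (WT 3), ATG12 to 0.11 (WT 3), NEU1 to −0.32 (WT 2), GABARAP to −0.11 and WIPI1 to −0.04 (K29Q 1), and TFEB to −0.15 (K29Q 2). GABARAPL1, outside these 12, was −0.97 without WT 1.

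With the replicate block 3 genes passed over all genes, and 3 members reached an unadjusted p under 0.05, GABARAPL1 among them. The numbers share only a name: deviations of same-numbered libraries correlated at −0.14, 0.179 and −0.165, and 2 of 6 libraries correlated best with their own number. FPKM keeps no counting error, and 3 libraries a group limit the precision.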
